A study of Mus musculus with 8 samples.

Results

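Sertoli cells sorted from fetal mouse testes were compared with the whole testes that contain them, on 4 of the 8 arrays of the series. The 4 arrays were taken by their titles, 2 of sorted Sertoli cells and 2 of testes, and every probe set of the array other than its controls was used. All 4 samples were XY, from the strain C57BL6/J-Tg92, at embryonic day 13. Each Sertoli sample was RNA of about 22000 cells sorted for EGFP, a green fluorescent protein, and each testis sample was RNA of 4 XY gonads pooled. About 20 ng of total RNA was amplified and about 2.5 µg of biotin-labelled cDNA was hybridised in both groups. The labels do not name the promoter that drives EGFP, nor do they state whether replicate samples had separate animals or litters as their source. The p-values then measure only the spread between these samples. The other 4 arrays, of about 30000 sorted XX pre-granulosa cells or 4 pooled XX gonads of the same strain and age, served to estimate that spread and for 1 comparison of the XY with the XX difference.

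Sertoli cells are the supporting cells of the testis. In the fetus they form the cords that enclose the germ cells, lay down a basement membrane with the surrounding myoid cells, and send out anti-Müllerian hormone and desert hedgehog, the latter to the precursors of fetal Leydig cells in the interstitium. A whole testis at this age therefore also holds germ cells, fetal Leydig cells, interstitial mesenchyme, vessels, blood cells, macrophages and a surface epithelium. In bulk RNA, fewer cells of a type and less RNA per cell cannot be told apart.

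Values are log2 array levels, and 1 unit is a 2-fold change. The sorted and the gonad arrays had different distributions, with a median of 5.57 against 5.97 before scaling, so Sertoli values are printed after the median Sertoli minus testis difference over 45037 probe sets, -0.21, was subtracted. The 0.75 and 0.95 quantiles before scaling were 7.55 and 10.59 in Sertoli arrays and 8.06 and 11.22 in testis arrays. The subtraction did not make these upper quantiles level. Levels set across the groups thus rest on arrays that were probably normalized apart. Replicates agreed less well among Sertoli arrays (root mean square SD 0.428, correlation 0.964 across probe sets) than among testis arrays (0.198 and 0.993). The excess of 3' over 5' signal, which grows with RNA degradation, was larger in Sertoli samples. For actin it came to 2.17 and 2.51 log2 units there and to 1.57 and 1.96 in testes, and for Gapdh to 1.94 and 2.69 and to 0.72 and 0.95. Its part in the results was not tested. Eif2s3y, a Y-linked gene, read 10.40 and 10.60 in Sertoli cells and 11.18 and 10.86 in testes. Xist, which coats and silences the inactive X, read 3.94 and 4.21 against 3.69 and 4.03, so all 4 samples had the pattern of XY cells.

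Sertoli cells differed from the whole testis far more often by lower than by higher transcript levels. Of 18193 genes, 1315 were called by limma at an adjusted p of 0.01 (7.23% of those tested). In Sertoli cells 1048 were lower (5.76%) and 267 higher (1.47%). The median difference of the called genes was -2.06 for the lower and 1.62 for the higher ones, beside -0.08 for all genes. Changes were also larger downward: 227 genes were lower by at least 3 log2 units and 12 were higher by as much. The values of the 2 groups did not overlap for 13235 genes (72.7%). Lower calls outnumbered higher ones under each scaling, by an amount that varied: 20.3% of the called genes were higher here, 10.2% with the values as deposited, 35.9% after quantile normalization over all arrays and 36.5% after scaling on housekeeping genes. The median of all genes then lay at -0.29, 0.06 and 0.11. The counts also rested on single arrays, since limma made 396 calls with Sertoli replicate 1 left out and 324 with Sertoli replicate 2 left out. It made 454 calls when an ovary array was left out and 2402 when a pre-granulosa array was. With testis replicate 1 left out it called 0 genes (lowest adjusted p = 0.0131, with 4487 genes under 0.05 before adjustment), and with testis replicate 2 left out likewise 0 (0.0127, with 4614 genes under 0.05). The cause was not tested.

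**Figure D1:**
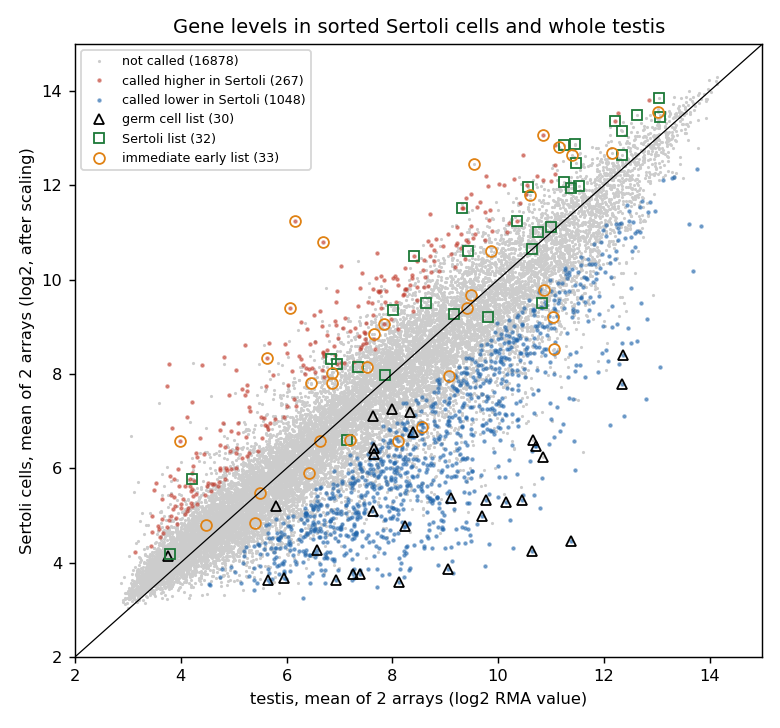
Mean log2 level of each gene in whole testis (horizontal axis) and in sorted Sertoli cells after scaling (vertical axis), 2 arrays each; the line marks equal levels. Blue points are the 1048 genes called lower and red points the 267 called higher in Sertoli cells, and germ cell genes (triangles) lie mostly below the line while Sertoli markers (squares) lie mostly a little above it.

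Some marker genes of Sertoli cells were higher in the sorted cells, by less than 5-fold. Of 32 measured, 5 were called higher and 0 lower, beside 1.47% and 5.76% of all genes. A positive difference was found for 28, and the list's median was 0.82 against -0.08 for all genes. Tesc, which encodes the calcium-binding protein tescalcin, read 11.52 and 11.53 in Sertoli cells and 9.27 and 9.37 in testes, a 4.60-fold excess (adjusted p = 0.00112). Mro, a testis-expressed gene known as maestro, read 10.27 and 10.73 against 8.47 and 8.35 (4.27-fold, adjusted p = 0.00272). Amh, which encodes anti-Müllerian hormone, read 8.14 and 8.30 against 7.003 and 6.90 (2.40-fold, adjusted p = 0.00595). In all 3 genes both Sertoli arrays stood above both testis arrays by more than the spread of either pair. Pairs that merely did not overlap were found for 72.7% of all genes. Clu, a secreted chaperone, was 2.23-fold higher (adjusted p = 0.00525) and Gata4, a transcription factor of gonadal somatic cells, 1.85-fold higher (adjusted p = 0.00798). A second, dimmer probe set of Gata4 went the other way, with -2.56 (adjusted p = 0.00171).

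Several genes that define the cell type had positive differences that were not called. Sox9, the transcription factor that directs Sertoli cell fate, read 11.74 and 12.16 in Sertoli cells and 11.41 and 11.37 in testes (difference 0.57, adjusted p = 0.308). Dhh, the hedgehog ligand, read 12.56 and 12.40 against 11.49 and 11.45 (1.01, adjusted p = 0.112). Cst9, a cystatin, read 13.44 and 13.54 against 12.69 and 12.56 (0.86, adjusted p = 0.276). For these genes too the Sertoli pair lay above the testis pair, where 72.7% of all genes had pairs that did not overlap. All 4 arrays read Sox9, Dhh and Cst9 above 11. Ptgds, which makes prostaglandin D2, differed by 0.82 (adjusted p = 0.129), Dmrt1, a transcription factor, by 0.88 (adjusted p = 0.0760), and Nr5a1, a regulator of steroid synthesis genes, by 1.17 (adjusted p = 0.0521). Wt1, a transcription factor of the early gonad, differed by 0.29 (adjusted p = 0.285). Sox8, a relative of Sox9, differed by 1.46, Fshr, the receptor of follicle-stimulating hormone, by 1.57, and Hsd17b3, which makes testosterone from androstenedione, by 1.61, with adjusted p of 0.0878, 0.101 and 0.310. Fitted on the 4 XY arrays alone, Dhh, Cst9, Ptgds and Hsd17b3 had adjusted p of 0.0161, 0.0223, 0.0260 and 0.0146, still above the threshold. Dmrt1 and Nr5a1 had 0.0177 and 0.0200 there, and Sox9, Sox8, Fshr and Wt1 had 0.104, 0.0614, 0.158 and 0.306. Of the list's 4 members with a negative difference, Etv5 had the largest, -1.32, with an adjusted p of 0.0212 in the same fit. That fit kept the calls of Tesc and Mro and lost those of Amh, Clu and Gata4, whose adjusted p were 0.0106, 0.0104 and 0.0175. The highest difference in the list was Tesc's 2.20, and 43 genes called higher lay above it, 13 of them also called higher in pre-granulosa cells than in ovaries.

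Germ cell genes had the lowest median of all lists. Of 30 measured, 19 were called lower and 0 higher, beside 5.76% and 1.47% of all genes. The list's median was -3.56. The median level of the list was 4.935 and 5.11 in the Sertoli arrays and 8.27 and 8.20 in the testis arrays. Dazl, an RNA-binding protein of germ cells, read 4.36 and 4.55 in Sertoli cells and 11.59 and 11.16 in testes, 121-fold lower (adjusted p = 4.03e-04). Ddx4, a germ cell helicase, read 3.62 and 4.87 against 10.66 and 10.62 (84.2-fold lower, adjusted p = 0.00109). Pou5f1, the pluripotency factor Oct4, read 5.10 and 5.56 against 9.76 and 9.79 (21.9-fold lower, adjusted p = 0.00136). The groups were far apart in each case, and the testis pairs were tight. Sox2, a further pluripotency factor, was 36.5-fold lower, Dppa3, which protects maternal methylation, 34.5-fold, Elavl2, an RNA-binding protein, 29.2-fold and Lin28a, which blocks the processing of let-7, 26.2-fold. Dppa2 and Tfap2c had large differences that were not called, -4.06 and -4.61, and their 2 Sertoli arrays disagreed, at 4.58 and 8.62 and at 4.54 and 7.93. Rnf17, of the piRNA pathway, differed by -2.56 (adjusted p = 0.0165).

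Some genes of XY germ cells and of meiosis were lower as well, beside 5.76% of all genes called lower. Of 11 XY germ cell genes 5 were called lower, with a list median of -1.62. Piwil4 and Piwil2, Argonaute proteins that bind piRNAs, were 11.1-fold and 3.22-fold lower. The Nodal pathway genes Lefty2, Nodal and Lefty1 were 7.16-fold, 3.94-fold and 3.08-fold lower. Of 17 meiotic prophase genes 4 were called lower (Meioc 9.72-fold, Sycp3 5.04-fold, Smc1b 4.61-fold and Sycp1 3.88-fold), with a list median of -0.76. Rec8, a meiotic cohesin subunit, stood at 1.63 without a call (adjusted p = 0.0147). Dnmt3l, a cofactor of DNA methylation in germ cells, differed by 0.61 (adjusted p = 0.0411).

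Fetal Leydig cell genes were lower for the steroid enzyme Hsd3b1 and for Mc2r, the receptor of adrenocorticotropic hormone. Hsd3b1 read 10.36 and 10.53 in Sertoli cells and 12.26 and 12.15 in testes (3.38-fold lower, adjusted p = 0.00460), and Mc2r read 3.45 and 3.81 against 7.26 and 7.22 (12.3-fold lower, adjusted p = 7.38e-04). These were the 2 called lower of 17 measured, beside 5.76% of all genes. Klf4, a transcription factor that is also on the immediate early list, was the 1 called higher, and the list's median was -0.71. The list's median level was 8.90 and 9.07 in Sertoli arrays and 10.26 and 10.13 in testis arrays. Cyp11a1, which starts steroid synthesis from cholesterol, read 7.70 and 9.07 against 10.99 and 10.63 (difference -2.42, adjusted p = 0.0181). Cyp17a1, which opens the androgen branch, read 8.90 and 10.24 against 11.87 and 11.53 (-2.13, adjusted p = 0.0264). Star, which carries cholesterol into mitochondria, read 6.82 and 8.55 against 10.36 and 10.13 (-2.56, adjusted p = 0.0213). In these 3 genes Sertoli replicate 2 stood over 1 unit above replicate 1, and both stayed under the testis arrays. A second probe set of Star was called lower (-2.04, adjusted p = 0.00595). Of 19 genes of cholesterol synthesis limma called 0 (7 lower and 0 higher before adjustment, at p under 0.05), and the largest differences were those of Insig1 (-2.05), Fdps (-1.82) and Hsd17b7 (-1.55). Alternatives at the same threshold called 0 to 2 of the 19 lower.

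**Figure D2:**
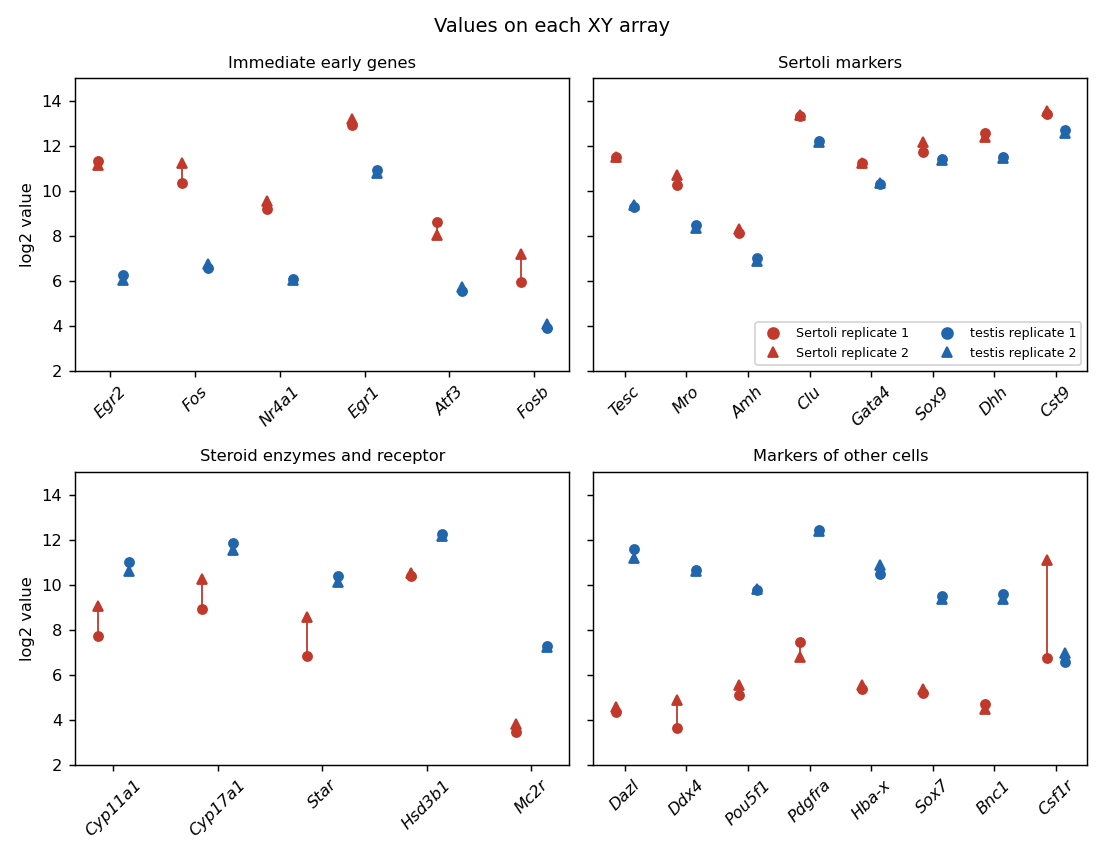
Log2 level of selected genes on each of the 4 XY arrays, with Sertoli arrays in red and testis arrays in blue, replicate 1 as a circle and replicate 2 as a triangle, joined by a line. The immediate early genes and Sertoli markers drawn stand higher and the germ cell, interstitial and blood markers drawn lower in Sertoli cells. Csf1r spans 6.76 to 11.08 between the 2 Sertoli arrays. In the full lists 11 of 33 immediate early genes and 4 of 32 Sertoli markers had a negative difference.

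Genes of the interstitial mesenchyme formed the next lowest list. Of 28 measured, 11 were called lower and 0 higher, beside 5.76% and 1.47% of all genes. A negative difference was found for 27, and the median was -2.26. The list's median level was 7.55 and 7.16 in Sertoli arrays and 9.47 and 9.64 in testis arrays. Pdgfra, the growth factor receptor of Leydig and stromal precursors, read 7.45 and 6.76 in Sertoli cells and 12.41 and 12.37 in testes, 38.9-fold lower (adjusted p = 7.58e-04). Tcf21, a transcription factor of the gonadal mesenchyme, read 6.15 and 7.18 against 11.10 and 11.03 (21.2-fold lower, adjusted p = 0.00142). Both testis arrays exceeded both Sertoli arrays by several units. Acta2, a smooth muscle actin, was 21.8-fold lower, Nid2, a basement membrane linker, 13.2-fold, Mfap4, a microfibril protein, 11.6-fold, and Col3a1, a fibrillar collagen chain, 9.04-fold. Not called were Wnt5a (-4.00, adjusted p = 0.0317), whose Sertoli arrays read 9.03 and 5.90, Maf (-3.40, adjusted p = 0.0155) and Nr2f2, a nuclear receptor of mesenchyme. The chosen probe set of Nr2f2 had a difference of -3.25 (adjusted p = 0.0955), and 4 of its other 5 probe sets were called lower, by -2.45 to -3.15. The spread used for the chosen probe set took in pre-granulosa arrays at 6.05 and 10.07, while its Sertoli arrays read 9.43 and 9.93.

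Hedgehog receptors and targets were lower for 3 of 12 members, beside 5.76% of all genes. Gas1, a hedgehog co-receptor, read 8.40 and 8.49 in Sertoli cells and 11.93 and 11.98 in testes (11.4-fold lower, adjusted p = 0.00347). Gli2 and Gli1, the pathway's transcription factors, were 8.26-fold and 4.78-fold lower. The list median was -1.28. Ptch1, receptor and target in 1 gene, read 13.34 and 13.29 against 13.25 and 13.11 (difference 0.13, adjusted p = 0.512), and its 2 other probe sets differed by 1.47 and -0.63, neither called. Hhip, a hedgehog-binding protein, was not called (-4.65, adjusted p = 0.0315), with Sertoli values of 3.55 and 7.36. Boc, a co-receptor, differed by -3.02 and Gli3 by -1.38 (adjusted p = 0.0221 and 0.0280).

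Some vessel genes were lower too. Of 28 endothelial genes 5 were called lower and 0 higher (median -1.29), beside 5.76% and 1.47% of all genes. The list's median level was 6.46 and 6.603 in Sertoli arrays and 7.68 and 8.01 in testis arrays. Sox7, an endothelial transcription factor, read 5.18 and 5.36 in Sertoli cells and 9.48 and 9.35 in testes, 17.7-fold lower (adjusted p = 9.71e-04). Ets1, a transcription factor of endothelium and other cells, was 14.0-fold lower, Flt4 and Kdr, receptors of vascular growth factors, 6.57-fold and 2.57-fold, and Ramp2, the partner of Calcrl in the adrenomedullin receptor, 3.95-fold. Emcn, Mmrn2 and Tek stood at -3.05, -2.12 and -2.08 without a call. Pecam1 read 4.79 and 4.97 against 5.90 and 6.52 (-1.34, adjusted p = 0.0165), and Cdh5 read 5.25 and 6.07 against 5.79 and 5.95 (-0.20, adjusted p = 0.649), so the Cdh5 groups overlapped. Against 5.76% of all genes, 5 of 13 pericyte and smooth muscle genes were called lower, with a list median of -1.23. Beside Acta2 they were Notch3, a receptor of mural cells (9.73-fold lower), Myl9, a myosin light chain (4.80-fold), Kcnj8, a potassium channel subunit (4.59-fold), and Rgs5, a pericyte marker (3.77-fold).

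Red cell genes were called lower for 4 of 15 members, beside 5.76% of all genes. Of 25 macrophage genes 2 were called lower, which is near that share, and 17 had a positive difference. The erythroid median was -0.67, with 0 members called higher. Hba-x, an embryonic alpha-like globin, read 5.35 and 5.52 in Sertoli cells and 10.47 and 10.88 in testes (37.8-fold lower, adjusted p = 7.47e-04). Hbb-y, an embryonic beta-like globin, read 10.51 and 9.86 against 13.63 and 13.74 (11.3-fold lower, adjusted p = 0.00418), and globin genes share much sequence. Slc4a1, the anion exchanger of red cells, was lower by a log2 difference of -3.47 and Hbb-bh1, another globin, 6.36-fold. The macrophage genes called lower were Cybb (2.46-fold) and Cx3cr1 (1.81-fold). On the 4 XY arrays alone 0 macrophage genes were called lower, and likewise with probe sets under a level of 6 in both groups left out. The macrophage list's median was 0.17, a value that ranged from -0.44 to 0.55 over the alternatives. Csf1r, the receptor that macrophages need to survive, read 6.76 and 11.08 against 6.56 and 6.97, so 1 Sertoli array was level with the testes and the other far above. C1qb, a complement chain, read 9.43 and 10.42 against 8.55 and 8.29 (adjusted p = 0.0614). The median level of the 25 genes was 5.82 and 6.602 in the 2 Sertoli arrays and 6.08 and 6.18 in the testis arrays.

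Surface epithelium markers split. Of 17 measured 2 were called higher and 5 lower (median -0.95), beside 1.47% and 5.76% of all genes. The mesonephric and nerve lists below had 1 call in each direction, too few to set against these shares. Lgals7, a galectin, read 11.999 and 12.27 in Sertoli cells and 10.52 and 10.09 in testes (3.55-fold higher, adjusted p = 0.00387), and Krt18, a keratin of simple epithelia, read 10.29 and 10.70 against 8.77 and 8.68 (3.42-fold higher, adjusted p = 0.00696). Its partner Krt8 stood at 1.91 (adjusted p = 0.0117, no call). Bnc1, a zinc finger protein of mesothelium, read 4.68 and 4.48 against 9.58 and 9.34 (29.5-fold lower, adjusted p = 0.00337). Upk3b, a uroplakin of mesothelium, was 10.8-fold lower, Lrrn4 6.52-fold, Krt19 4.31-fold and Aldh1a2, which makes retinoic acid, 3.05-fold. Of 11 mesonephric and rete genes 1 was called higher, the kidney cadherin Cdh16 (5.42-fold), and 1 lower, Epcam, an epithelial adhesion protein (9.67-fold). Cdh1, the epithelial cadherin, read 4.30 and 8.003 in Sertoli cells and 9.42 and 9.13 in testes (-3.12, adjusted p = 0.0858, no call). Pax8, a transcription factor of mesonephric tubules, read 4.84 and 5.70 against 5.75 and 5.804 (-0.51, adjusted p = 0.238). Of 10 nerve and Schwann cell genes 1 was called higher, Sox10, at 10.26 and 10.04 against 7.38 and 7.47 (6.63-fold, adjusted p = 0.00142), and 1 lower, Ngfr, the low-affinity neurotrophin receptor (9.96-fold).

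**Figure D3:**
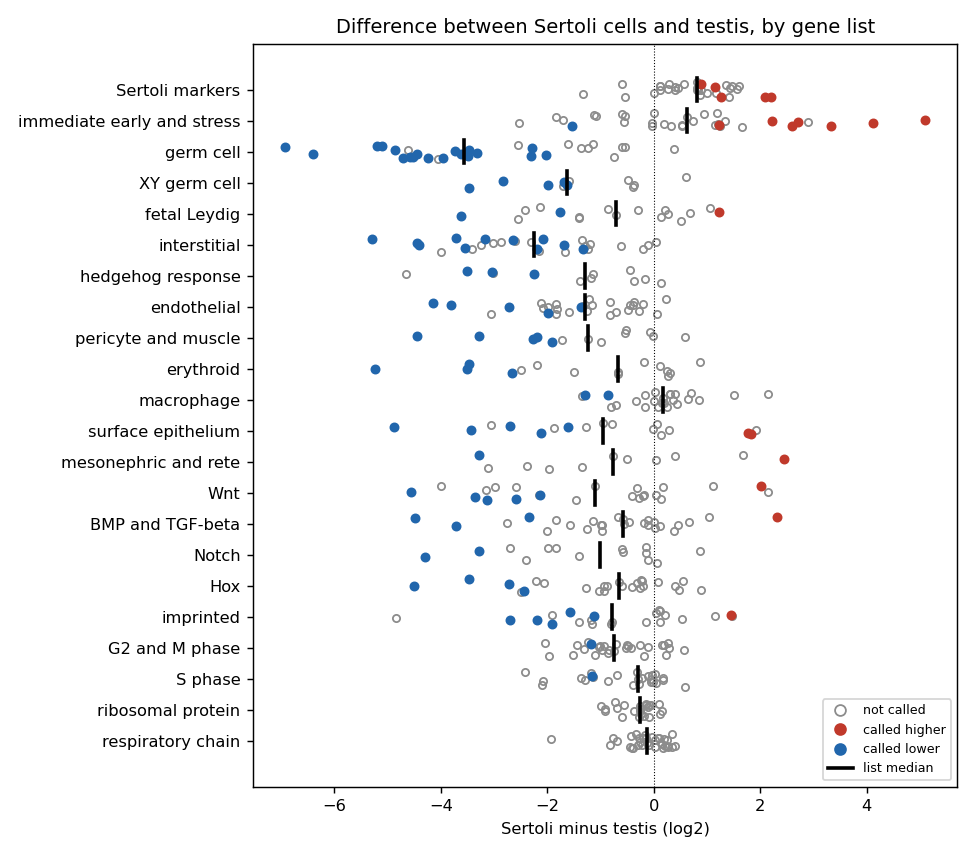
Sertoli minus testis difference (log2) of every measured member of 22 gene lists, with filled points for genes called higher (red) or lower (blue), open points for genes not called and a bar at each list's median. The germ cell and interstitial medians lie lowest, at -3.56 and -2.26, and those of the Sertoli and immediate early lists highest, at 0.82 and 0.62.

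Among the largest increases in Sertoli cells were those of immediate early genes, which are transcribed within minutes of many stimuli through factors bound upstream of their starts. Of 33 immediate early and stress genes, 7 were called higher and 1 lower, beside 1.47% and 5.76% of all genes. The list's median was 0.62. Egr2 and Fos, which belong to the 3 genes higher by at least 4 log2 units, are shown by their upstream letters, for the elements such genes are known for. The sequences are RefSeq's for the mouse assembly GRCm38.p6, the 250 bases before the start on the plus strand, at chr12:85473640-85473889 for Fos and at chr10:67537619-67537868 for 1 of several starts of Egr2. Capitals mark the TATA box letters TATAAA in Fos, from position -33, and the CArG box, the site of serum response factor, in Egr2, from position -72.
Fos: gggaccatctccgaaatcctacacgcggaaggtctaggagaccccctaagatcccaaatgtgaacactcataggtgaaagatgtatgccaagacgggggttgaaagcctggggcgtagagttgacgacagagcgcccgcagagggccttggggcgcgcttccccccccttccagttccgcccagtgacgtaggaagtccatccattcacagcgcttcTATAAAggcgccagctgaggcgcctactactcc
Egr2: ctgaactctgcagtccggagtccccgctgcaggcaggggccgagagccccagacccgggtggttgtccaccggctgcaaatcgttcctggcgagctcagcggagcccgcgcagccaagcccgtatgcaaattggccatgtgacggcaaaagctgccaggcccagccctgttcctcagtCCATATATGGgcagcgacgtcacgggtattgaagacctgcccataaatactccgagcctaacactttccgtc
A search of both strands for TATAAA, the CArG box and the cyclic AMP response element TGACGTCA found no other match in these windows, and the marked matches do not overlap. Of 14452 measured genes with such a window, 10.5% held TATAAA, 1.43% a CArG box and 2.50% the TGACGTCA element. Of the 27 immediate early genes with a window, 6, 2 and 4 held them, and of the 6 called higher, 1, 1 and 0. The matches are a description of these windows.

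Egr2, a zinc finger transcription factor, read 11.34 and 11.17 in Sertoli cells and 6.26 and 6.04 in testes, 34.4-fold higher (adjusted p = 6.64e-04). Its second probe set was called as well, at 4.00 (adjusted p = 6.98e-04). Fos, a subunit of AP-1, read 10.34 and 11.25 against 6.597 and 6.77 (17.3-fold, adjusted p = 0.00265). For both genes the lowest Sertoli array stood over 3 units above the highest testis array. Nr4a1, an orphan nuclear receptor, read 9.21 and 9.56 against 6.09 and 6.04 (difference 3.33, adjusted p = 0.00171). Egr1, a relative of Egr2, read 12.95 and 13.20 against 10.91 and 10.79 (4.67-fold, adjusted p = 0.00231). Atf3, a stress-induced factor, was 6.51-fold, Fosb, another AP-1 subunit, 6.05-fold and Klf4 2.34-fold higher. Gadd45b, a stress sensor, was 2.91-fold lower. Ccn1, a matricellular protein, read 12.37 and 12.53 against 9.43 and 9.66 and was not called (2.90, adjusted p = 0.0150), nor were Sgk1 (-2.53) and Fosl2 (-1.83). Of 17 heat shock genes limma called 0 (4 higher and 1 lower before adjustment, at p under 0.05), and Hspa1a, an inducible chaperone, differed by 1.77 (adjusted p = 0.107). Alternatives at the same threshold called 0 to 1 heat shock genes in each direction. The same 7 immediate early genes were called higher in pre-granulosa cells against ovaries, and Egr2 differed there by 5.37.

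The other genes with the highest differences did not come from the lists, apart from those above. Tmem86b, which encodes an enzyme of plasmalogen breakdown, read 8.59 and 7.82 in Sertoli cells and 3.68 and 3.88 in testes (21.5-fold, adjusted p = 0.00519). Hnf4a, a nuclear receptor of liver and kidney, read 7.55 and 7.94 against 3.62 and 3.87 (16.0-fold, adjusted p = 0.00689). Gcnt3, a glycosyltransferase of mucins, read 7.91 and 8.46 against 5.03 and 3.79 (13.7-fold, adjusted p = 0.00351). All 3 stood low in both testis arrays, and each had other probe sets, dimmer and not called, with differences of 0.31 and -0.25 for Tmem86b, 0.87, 0.44 and -0.16 for Hnf4a and 0.53 and -0.43 for Gcnt3. Cltrn, a partner of amino acid transporters known as collectrin, was 11.7-fold higher, and Mlxipl, a glucose-responsive transcription factor, 10.6-fold. Rgs11, a regulator of G protein signalling, was 9.49-fold, Omd, a matrix proteoglycan, 9.16-fold and Orc1, a subunit of the origin recognition complex, 8.28-fold higher. Plxnb3, a semaphorin receptor, was 8.05-fold, Psg17, a pregnancy-specific glycoprotein, 7.81-fold, Nfil3, a leucine zipper repressor, 7.22-fold and Neat1, the RNA scaffold of nuclear paraspeckles, 7.17-fold higher. The second probe sets of Orc1, Neat1 and Plxnb3 differed by -0.11, -0.57 and 1.10.

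Probe sets called higher were often ones without a gene name. Of 824 probe sets called higher, 37.4% had no symbol, against 7.47% of the 2197 called lower and 20.3% of all. Among genes with more than 1 probe set, 70.3% of the 246 other probe sets of genes called higher had the same sign as the chosen one, and 70.7% of the 1155 of genes called lower. Fewer were called the same way, 26 of the 246 and 231 of the 1155, and 7 in each set were called the opposite way. The median genomic span was 21.1 kb for genes called higher, 30.2 kb for genes called lower and 20.3 kb for all genes. X-linked genes made up 3.03%, 4.23% and 3.42% of the same sets. These shares describe the called genes and were not tested.

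At the low end stood genes of several cell types. After Dazl and Ddx4 came Lox, which cross-links collagen and elastin, at 4.46 and 4.15 in Sertoli cells and 10.29 and 10.29 in testes (63.3-fold lower, adjusted p = 4.03e-04). Enpep, aminopeptidase A, read 4.08 and 3.77 against 9.89 and 9.60 (56.6-fold lower, adjusted p = 0.00793). Calcrl, the receptor that Ramp2 pairs with, read 6.59 and 5.32 against 11.44 and 11.45 (difference -5.49, adjusted p = 0.00597). In each the testis arrays were close together and the Sertoli arrays at least 4 units lower. Cdc42ep3, an effector of the GTPase Cdc42, was 49.6-fold lower with Sertoli arrays far apart (3.78 and 6.54). Vgll3, a cofactor of TEAD factors, was 43.0-fold, Epha3, an ephrin receptor, 41.4-fold, Thbd, thrombomodulin, 40.5-fold, Rhbdl3, a rhomboid family member, 40.1-fold and Hbb-b2, a beta-globin, 37.0-fold lower. Cbln1, a secreted cerebellin named here after its values were seen, read 7.71 and 8.60 against 13.12 and 13.01 (difference -4.91, adjusted p = 0.00169), and its 2 other probe sets were called lower too.

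Among signalling genes Wnt6 and Amhr2 were called higher and 14 lower, and of all called genes 20.3% were higher. Of all genes tested, 1.47% were called higher and 5.76% lower. Of 23 Wnt genes 1 was higher, the ligand Wnt6, at 12.06 and 11.996 in Sertoli cells and 9.73 and 10.29 in testes (4.05-fold, adjusted p = 0.00804), and 5 were lower. Dkk1, a secreted Wnt inhibitor, read 4.60 and 4.91 against 9.06 and 9.58 (23.7-fold lower, adjusted p = 7.37e-04). The inhibitors Sfrp1 and Sfrp2 were lower by log2 differences of -3.36 and -2.58, and the receptors Fzd1 and Fzd2 8.71-fold and 4.37-fold lower. Axin2, a target of the pathway, differed by -3.16 and Lef1, a transcription factor, by -2.98, neither called. Of 27 BMP, activin and TGF-beta genes 1 was higher, Amhr2, the receptor of anti-Müllerian hormone, at 11.68 and 11.94 against 9.47 and 9.52 (4.96-fold, adjusted p = 0.00391). The co-receptor Tgfbr3 was 22.3-fold lower, the ligand Tgfb2 13.1-fold and Id4, a target of BMP signals, 5.06-fold. Of 14 Notch genes 2 were lower, Hey2, a target of the pathway (19.6-fold), and Notch3, and 0 higher. Of 16 FGF genes 1 was lower, Spry1, a feedback inhibitor (4.66-fold), while the receptors Fgfr1 and Fgfr2 had differences of -2.77 and -2.72 and the ligand Fgf18 one of 1.71 that were not called. Of 15 retinoid genes 3 were lower, Dhrs3, which reduces retinaldehyde (6.80-fold), Aldh1a2, and Crabp2, which delivers retinoic acid to its receptors (difference -1.59).

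Among transcription factors of the early gonad, Hox genes and imprinted genes, the members called higher were Gata4 and Meg3. The shares over all genes were 1.47% called higher and 5.76% called lower. Of 14 early gonad factors Gata4 was called higher and 3 lower, Six4, a homeobox factor upstream of Sry (21.6-fold), Tcf21 and Lhx9. Lhx9, a LIM homeobox factor, read 5.39 and 5.57 in Sertoli cells and 9.31 and 9.58 in testes (15.6-fold lower, adjusted p = 7.37e-04). It is also on the list of 16 female supporting cell genes, of which 4 were called lower and 0 higher; the others were Fzd1, Nr2f1 (3.86-fold) and Gng13 (2.67-fold). Lgr5, a receptor of R-spondins on the same list, stood at 2.15 without a call (adjusted p = 0.0215). Of 25 Hox genes 4 were called lower and all 4 belong to the HoxD cluster on chromosome 2: Hoxd3 (22.6-fold), Hoxd8 (11.1-fold), Hoxd10 (difference -2.72) and Hoxd9 (5.44-fold). Of the HoxD genes 5 were measured, and limma called 0 of the 8 HoxA, 6 HoxB and 6 HoxC genes, a split made after the values were seen. Their medians were -0.25, -0.30 and -1.46, beside -2.72 for HoxD. Of 22 imprinted genes 5 were lower and 1 higher. Igf2, a fetal growth factor, read 9.74 and 9.89 against 12.55 and 12.49 (6.53-fold lower, adjusted p = 0.00207), and Mest, Plagl1, Igf2r and Peg3 were 4.55-fold, 3.75-fold, 2.99-fold and 2.19-fold lower. Meg3, a long non-coding RNA, was 2.73-fold higher, though 1 of its other probe sets was called lower (-1.77).

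Lists of structure, growth and metabolism had 0 to 2 called members each, beside 7.23% of all genes. Of 21 basement membrane genes Col18a1, a collagen chain, was higher, at 12.65 and 12.64 in Sertoli cells and 10.36 and 10.58 in testes (4.51-fold, adjusted p = 0.00929), and Nid2 was lower. Of 21 junction genes limma called 0 (3 higher and 6 lower before adjustment, at p under 0.05), and the neural cadherin Cdh2 differed by -2.20 (adjusted p = 0.0133). Alternatives at the same threshold called 0 to 2 junction genes in each direction. Of 29 genes of the G2 and M phases 1 was lower, the checkpoint kinase Bub1b (2.26-fold), and of 25 S phase genes 1, the clamp loader subunit Rfc3 (2.24-fold). The medians of these 2 lists were -0.745 and -0.30. Before adjustment, at p under 0.05, 12 and 9 were lower and 0 higher, while 7056 of all 18193 genes passed in either direction. Alternatives at the same threshold, with no single array left out, called 0 to 6 and 0 to 3 lower. Mki67, a marker of cycling cells, read 11.91 and 12.37 against 11.46 and 11.70 (0.56, adjusted p = 0.476). Of 18 glycolysis genes Hk1, which phosphorylates glucose, was 4.63-fold higher, with its second probe set at -0.64, and Slc16a1, a lactate carrier, 4.32-fold lower. Limma called 0 of 33 respiratory chain genes (1 higher and 6 lower before adjustment, at p under 0.05) and 0 of 23 ribosomal protein genes (0 and 8). Alternatives at the same threshold, with no single array left out, called 0 to 1 of each lower. Of 15 hypoxia genes Egln3, an oxygen sensor, was 4.72-fold lower, and of 11 DNA methylation genes Mbd4, a glycosylase, 2.46-fold. Of 7 Y-linked genes Uty was called higher (6.61-fold), while its 3 other probe sets differed by 0.07, -0.15 and -0.18 and Eif2s3y and Kdm5d by -0.52 and -0.58. Gusb, listed among housekeeping genes, was 3.09-fold higher.

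The Sertoli replicates differed from each other for several lists. Of 33 immediate early genes 25 were higher in Sertoli replicate 2, 5 of them by over 1 unit and 0 the other way by as much (median 0.19), and of 28 endothelial genes 20 (median 0.20). Of 25 macrophage genes 21 were higher in Sertoli replicate 2 than in replicate 1, with a median of 0.71 and 9 of them by over 1 unit, beside 55.2% of all genes higher in it. Of 28 interstitial genes 11 were higher in replicate 2, and 8 were lower in it by over 1 unit (median -0.24). Leydig cell genes had a median of 0.28, with 4 of 17 higher in replicate 2 by over 1 unit. The Sertoli, ribosomal protein and respiratory chain lists had medians of 0.04, -0.00 and -0.01. Over all genes the Sertoli replicates were apart by over 2 units for 197 and the testis replicates for 4. The part of other cells in the Sertoli samples was not tested.

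**Figure D4:**
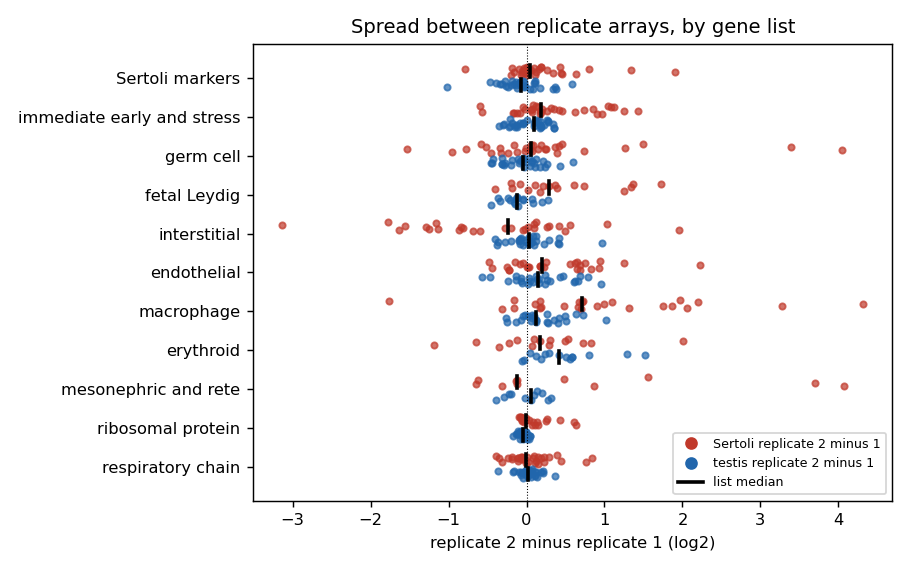
Replicate 2 minus replicate 1 (log2) of every measured gene of 11 lists, for Sertoli arrays in red and testis arrays in blue, with a bar at each median. The Sertoli points spread more widely than the testis points, and the macrophage genes are shifted to replicate 2 by a median of 0.71.

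The same contrast in XX gonads, sorted pre-granulosa cells against whole ovaries, shares no array with the XY one. Both come from 1 fit with 1 spread per gene, so the calls of the comparisons are not independent. The XX comparison called 6.02% of genes, 939 lower (5.16%) and 157 higher (0.863%). Of the genes lower in Sertoli cells 48.2% were also lower in pre-granulosa cells (505 genes, 53.8% of those lower there), and of the genes higher in Sertoli cells 28.5% were also higher (76 genes, 48.4% of those higher there), while 5 were called in opposite directions. The germ cell medians were -3.56 in XY and -4.08 in XX, and the interstitial medians -2.26 and -2.32. G2 and M phase genes had a median of -0.74 in XY, with 1 of 29 called, and of -3.07 in XX, with 23 called. The Sertoli markers had a median of 0.82 in XY and 0.38 in XX. Limma called 0 genes for the difference between the XY and XX differences at an adjusted p of 0.01 (0%). The lowest adjusted p was 0.0240, 2320 genes had p under 0.05 before adjustment, and 62 passed an adjusted p of 0.05. No gene is therefore shown to be particular to the XY comparison at the threshold used.

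**Figure D5:**
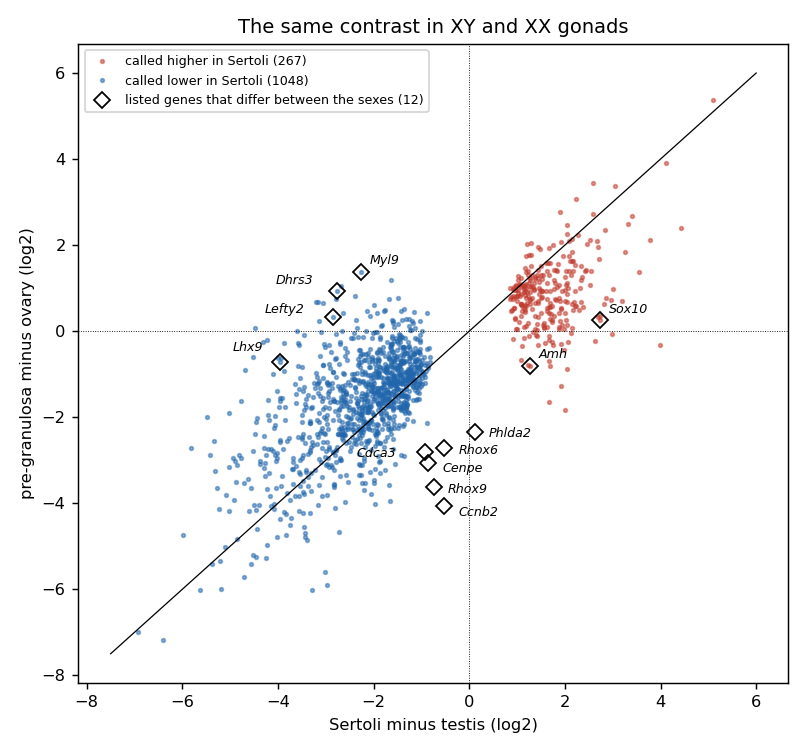
Sertoli minus testis difference (horizontal axis) and pre-granulosa minus ovary difference (vertical axis) in log2 units for the genes called higher (red) or lower (blue) in Sertoli cells; the line marks equal differences. Most points lie in the quadrants of equal sign, and diamonds mark the 12 listed genes whose XY and XX differences differed at an adjusted p of 0.05.

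Medians of the main lists kept their sign under every alternative fitted, the omission of each array included. They ranged from -3.85 to -3.36 for germ cell genes, from -2.63 to -1.89 for interstitial genes, from 0.61 to 1.05 for Sertoli markers and from 0.41 to 0.90 for immediate early genes. With Sertoli replicate 1 and then replicate 2 left out, the called genes were 13 and 13 of the germ cell list, 12 and 9 of the interstitial list, 3 and 1 of the Sertoli list, and 5 and 2 immediate early genes on the higher side. With either testis array left out these counts were 0.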

How the data were processed

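RNA was measured on Affymetrix mouse arrays. The deposited table holds log2 values per probe set, made by the authors with RMA per the submitters' processing notes, with no version or build given in the sources used here. Sorted ranks of values matched to within 0.175 among sorted-cell arrays and 0.146 among gonad arrays, so each set was probably normalized on its own, a step that no label records. Of 45101 probe sets, 64 controls were left out. Each gene is represented by its brightest probe set on average among the 34945 with a single symbol in the array's annotation, while 932 had several symbols and 9160 none.

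The median difference was subtracted from the Sertoli arrays (-0.2122) and from the pre-granulosa arrays (-0.2530). The test was limma (version 3.58.1, under R 4.3.3) on all 8 arrays, using lmFit and eBayes with a mean for each group. P-values are two-sided, adjusted by Benjamini-Hochberg over 45037 probe sets, and a call needs 0.01 or less, the rate the series text names for its own test in R/maanova, which was not run. The p-value thus tests the difference from the median probe set. The steps were tested on simulated data.

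Members and gene lists were chosen with earlier results of these data known. Named genes are the 15 highest and 15 lowest calls with separated groups, clone and model names left out, up to 6 called per direction and 3 not called from each list, and a fixed set of genes, of which Nanos2 and Insl3 were not analysed here. Genes outside this rule are said to be so. Alternatives covered scaling, moderation, filters, thresholds, probe set choice, a replicate block and omission of each array. With arrays, their number limits the precision.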

Additional observations from a re-analysis of the deposited data

Results flagged for a closer look

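For 12 of the 709 genes listed or named, the Sertoli minus testis difference and the pre-granulosa minus ovary difference differed at an adjusted p of 0.05 in limma's test of the difference itself, and none of them did at 0.01. Each value is the XY difference minus the XX difference in log2 units.

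For 4 genes the XY difference was the lower one. Dhrs3, which reduces retinaldehyde, had a value of -3.69, from -2.76 in XY and 0.92 in XX. Myl9, a myosin light chain, had -3.65 and was called in opposite directions (-2.26 and 1.39). Lhx9, the LIM homeobox factor, had -3.24 (-3.96 and -0.72), with pre-granulosa arrays at 10.09 and 9.83 and Sertoli arrays at 5.39 and 5.57. Lefty2, the Nodal antagonist, had -3.18 (-2.84 and 0.34), and its level was high in testes and low in the other 3 groups.

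For 8 genes the XX difference was the lower one. The mitotic genes Ccnb2, Cenpe and Cdca3 had values of 3.53, 2.21 and 1.88, with XX differences of -4.06, -3.07 and -2.81. Rhox9, Phlda2 and Rhox6 had 2.88, 2.45 and 2.19, and all 3 were called lower in pre-granulosa cells than in ovaries. Sox10 had 2.47 (2.73 in XY and 0.26 in XX), and Amh had 2.07 (1.27 and -0.80).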

How the results depend on the processing

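Of the alternatives to the 1315 called genes, those that moved the count by over 1.5 times were a weight per group (2163), no moderation (217), an adjusted p of 0.05 (4030), a replicate block (591) and every probe set of a gene called the same way (652); leaving out each array gave 0 to 2402. The cause was not tested. The replicate numbers were not taken to pair the samples: deviations of same-numbered Sertoli and testis arrays correlated at 0.04 and those of pre-granulosa and ovary arrays at -0.01. On the 4 XY arrays alone 1186 genes were called, 799 of them among the 1315. The 0 genes of the XY minus XX difference became 62 at an adjusted p of 0.05 and stayed 0 under the other alternatives and with each array left out (0 to 0); on the 4 XY arrays it could not be fitted. The replicate block lost 52 calls of the 709 listed or named genes and added 0. The 1 reversal was Fbln1, a matrix protein, not called at 0.04 and at -1.63 with the probe set of highest mean over the 4 XY arrays. Dim signals and 2 arrays per group limit small differences.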

Other observations

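Some genes outside the rule for named genes, read after their values were seen, had large differences in Sertoli cells. Oxtr, the oxytocin receptor, read 4.89 and 5.995 in Sertoli cells and 10.76 and 10.18 in testes (32.6-fold lower, adjusted p = 0.00157), with a second, dim probe set at 0.05. Gucy1b1, a subunit of soluble guanylate cyclase, and Chrna7, a nicotinic receptor subunit, were called lower as well, with testis values of 9.28 and 8.98 and of 8.85 and 8.86. On the higher side Hcrtr1, an orexin receptor, read 7.52 and 7.58 against 4.82 and 5.004, and Col9a2, a cartilage collagen chain, 9.55 and 9.97 against 6.65 and 7.24.

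Neither probe set of Sry separated the sexes, so Sry could not be read. The chosen one read 8.16 and 8.12 in Sertoli cells, 7.74 and 7.63 in testes, 8.37 and 8.11 in pre-granulosa cells and 7.49 and 7.57 in ovaries.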
